A study of Mus musculus with 28 samples.

Results

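The comparison set activated mouse spleen CD8 T cells given vorinostat at 2 µM against the same kind of cells given vorinostat at 0.5 µM, across all genes of a whole-genome expression array. It took the 4 arrays whose labels give CD8 cells and one of these doses, out of 28 arrays in the study: 2 arrays at 2 µM and 2 at 0.5 µM, one of each for replicate number 1 and replicate number 2. In all groups used here, CD8 or CD4 T cells had been isolated from mouse spleen by negative selection and stimulated for 2 days with anti-CD3 antibody at 3 µg/ml, bound to the plate, and soluble anti-CD28 antibody at 5 µg/ml. The cells of both doses then received vorinostat for 1 day. The study also held CD8 arrays at 10 µM and without drug, the same vorinostat doses in CD4 cells, and 3 doses of romidepsin in both cell types, with 2 arrays a group. The labels give no strain, sex or age, name no vehicle for the controls, and do not describe the animals behind the replicates. Sex-linked transcripts, given below, differed between the 2 replicate numbers, so these were not cells of one and the same animal. The p-values below measure the spread left over all 28 arrays once group means and each cell type's replicate difference are removed.

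Vorinostat is a hydroxamate that blocks the zinc-dependent histone deacetylases (HDACs), enzymes that take acetyl groups off histones and many other proteins. Blocking them raises histone acetylation and changes transcription in both directions. CD8 T cells stimulated through their receptor and CD28 divide, build ribosomes and biosynthetic enzymes, and acquire cytotoxic granules and effector cytokines. Bulk RNA cannot tell fewer cells of a type from less RNA per cell, which holds for every value below.

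The 4 arrays carried the markers of CD8 T cells and few of those of most other cell types. All 7 CD8 T cell markers present on the array lay above the detection level of 4.26 log2 units in every one of the 4 arrays. Of the CD4 T cell list, Cd4, Cd40lg and Foxp3 lay under the level in all 4 arrays. The other 3 of its 6 genes lay above it in all 4, among them Zbtb7b, with 4.64 and 5.22 at 2 µM and 4.64 and 4.39 at 0.5 µM. The identical value of 4.64 also recurred in replicate number 1 of CD4 cells given 10 nM romidepsin or 10 µM vorinostat. It may therefore be a background value of this probe set, and expression of Zbtb7b in these CD8 arrays is not shown by it. The NK cell list had 6 of 7 genes under the level in both doses, the myeloid and dendritic list 12 of 14, and the erythroid and stromal lists 6 of 8 each. The B cell list had 10 of 12 under it, among them Cd79a and Pax5; Cd79b and Ms4a1 are given beside the falls they touch. The number of genes above the level split by replicate number. It was 8537 at 2 µM and 8453 at 0.5 µM in replicate number 1, and 9196 and 9129 in replicate number 2. The actin 3′ minus 5′ difference, a sign of RNA quality, was 1.16 and 0.96 log2 units at 2 µM and 0.98 and 0.88 at 0.5 µM, higher at 2 µM in both replicate numbers. Replicate number 1 had Eif2s3y, a Y-linked gene, at 11.36 to 12.02 in all 14 of its arrays and Xist, transcribed from the inactive X chromosome, at the floor of the scale. Replicate number 2 had Xist at 11.69 to 12.72 and Eif2s3y at the floor in all 14.

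Raising vorinostat 4 times over changed 1236 of 9875 tested genes, or 12.5% (limma with replicate number as a block, Benjamini-Hochberg adjusted p under 0.05). Of these, 729 were higher at 2 µM (7.38% of tested genes) and 507 were lower (5.13%), with median changes of 0.72 and -0.66 on the log2 scale. At least 2-fold rises numbered 193 and falls of that size 74, while at least 4-fold changes numbered 29 upward and 7 downward. All 1236 moved the same way in both replicate numbers, which the test itself favours. In 1077 of them (87.1%) the change was larger in replicate number 1, where the changes of all tested genes had an SD of 0.57 against 0.40 in replicate number 2. The median change over all tested genes was 0.01. With the actin difference as a covariate 1467 genes were called, 1045 of them among the 1236. Both arrays at 2 µM lay above both at 0.5 µM in 13.6% of tested genes and below both in 8.89%.

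The counts rest on the pairing of arrays by replicate number. Without the block only 16 genes passed (0.162%), all of them higher at 2 µM and all among the 1236, with 600 at an unadjusted p under 0.05. Leaving out the replicate 1 array at 2 µM left 40 calls, and leaving out replicate 1 at 0.5 µM left 38. Without the replicate 2 array at 2 µM there were 851 calls, and without that at 0.5 µM 838. Of the 117 genes singled out by the naming rule, 16 stayed called whichever of the 4 arrays was left out. Among them were Prss16, Pkp2, Mpzl1, Fnbp1l, Fxyd7, Lmna, Irf4, Usp18, Hspb1, Wasf1, Bex2, Aplp1, Palld, Nfil3 and Dixdc1, and all 16 were higher at 2 µM. In what follows, "replicate-robust" means called in all 4 of these leave-outs.

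**Figure D1:**
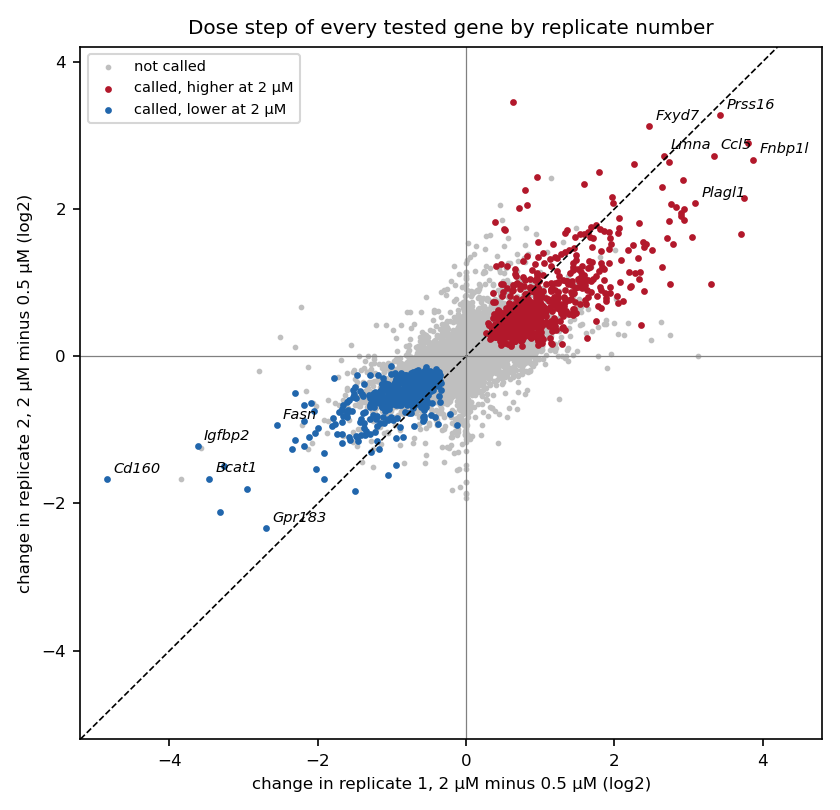
Change of each of the 9875 tested genes between vorinostat 2 µM and 0.5 µM in CD8 cells, replicate number 1 on the horizontal axis and replicate number 2 on the vertical axis, in log2 units. Red points were called higher at 2 µM (729) and blue points lower (507), the dashed line marks equal changes, and most called points lie on the side of the larger change in replicate number 1 (1077 of 1236).

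The largest rises among genes with both dose means above the detection level included a thymic-type protease, a chemokine, interferon-inducible GTPases and desmosomal proteins. Prss16, a serine protease best known from thymic epithelium, had 7.93 and 7.62 log2 units at 2 µM and 4.50 and 4.35 at 0.5 µM. Both arrays at 2 µM lay far above both at 0.5 µM, a 10.2-fold rise (log2 change 3.35 ± 0.28, SE, n = 2 each, limma adjusted p = 3.52e-05). Ccl5, the T cell chemokine RANTES, had 14.01 and 12.33 at 2 µM and 10.67 and 9.60 at 0.5 µM. This 8.18-fold rise (3.03 ± 0.49, limma adjusted p = 0.00286) was not called without replicate 1 at 2 µM (adjusted p = 0.0825), although the arrays of the doses did not overlap. Plagl1, an imprinted zinc finger transcription factor, had 9.63 and 8.17 at 2 µM and 6.54 and 6.08 at 0.5 µM, a 6.01-fold rise (limma adjusted p = 0.00173) read on a probe set that may hybridise with related transcripts. Eaf2, an elongation factor partner, had 7.46 and 7.61 at 2 µM and 3.75 and 5.95 at 0.5 µM, where 1 array lay under the detection level, and was at least 5.38-fold higher. Dsp and Pkp2 encode desmoplakin and plakophilin 2 of the desmosome, a junction of epithelium and heart. Dsp was 4.1-fold higher and Pkp2 3.92-fold higher at 2 µM. The other rises of this size were those of Acbd7 (5.05-fold), Tmcc3 (4.47-fold) and Mpzl1 (4.19-fold, with a change of 0.76 on its other probe set), and of Iigp1, Gbp2b and Gbp2, given with the interferon genes. Without replicate 1 at either dose Plagl1, Eaf2, Dsp, Acbd7 and Tmcc3 lost their calls and Prss16, Pkp2 and Mpzl1 kept them.

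**Figure D2:**
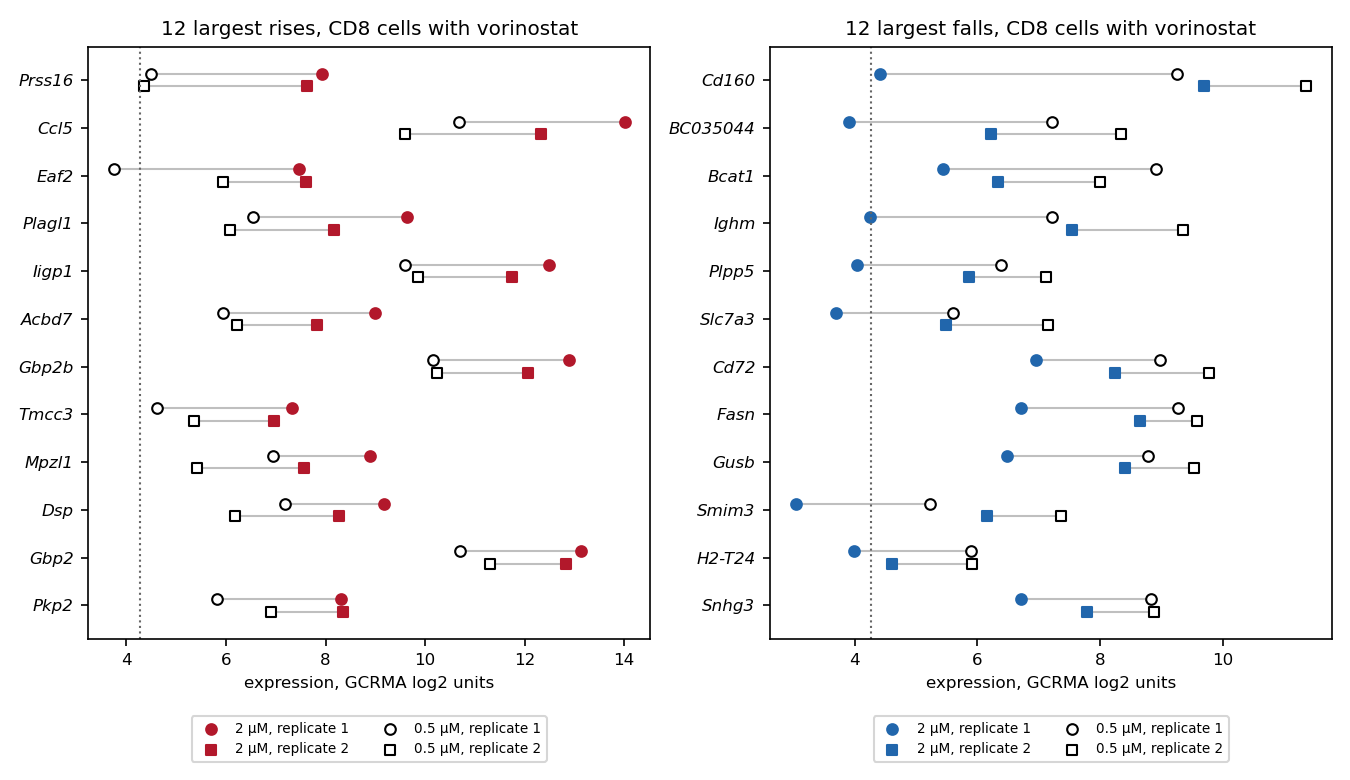
Expression in GCRMA log2 units (horizontal axis) of the 12 largest called rises (left) and the 12 largest called falls (right) with both dose means above the detection level. Filled symbols are the vorinostat 2 µM arrays and open symbols the 0.5 µM arrays, circles are replicate number 1 and squares replicate number 2, grey lines join the arrays of one replicate number, and the dotted line is the detection level. For Cd160, Ighm and Smim3 the arrays of the doses overlap although each replicate number fell.

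The largest falls were led by an activation receptor, a transaminase and lipid and amino acid genes, and most of them were larger in replicate number 1. Cd160, a GPI-linked receptor of NK cells and activated CD8 T cells, had 4.41 and 9.70 log2 units at 2 µM and 9.25 and 11.37 at 0.5 µM. The doses overlapped, but each replicate number was lower at 2 µM, with changes of -4.84 and -1.67, and the mean change was -3.26 ± 0.87 (SE, limma adjusted p = 0.0261); both other Cd160 probe sets had lower means at 2 µM too. Bcat1, the cytosolic branched-chain aminotransferase, had 5.45 and 6.34 at 2 µM and 8.91 and 7.997 at 0.5 µM, a 5.91-fold fall (limma adjusted p = 0.0269). Fasn, fatty acid synthase, had 6.71 and 8.65 at 2 µM and 9.27 and 9.58 at 0.5 µM, a 3.35-fold fall (limma adjusted p = 0.0335). Gusb, the lysosomal beta-glucuronidase, was 3.3-fold lower, with a change of -0.51 on another probe set, and Snhg3, a host gene of small nucleolar RNA, 3.05-fold lower. In 5 further falls the replicate 1 array at 2 µM lay under the detection level, so the folds are bounds. Slc7a3, a cationic amino acid transporter, was at least 2.84-fold lower and H2-T24, a non-classical MHC class I gene, at least 2.78-fold lower. BC035044 was at least 5.8-fold lower, Plpp5, a phospholipid phosphatase, at least 3.23-fold, and Smim3 at least 2.13-fold. None of the 12 largest falls stayed called without replicate 1 at 2 µM or at 0.5 µM, and BC035044 and Gusb were called in none of the 4 leave-outs.

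Ighm and Cd72, both known from B cells, were among these falls. Ighm, the IgM heavy chain constant region, had 4.26 and 7.54 log2 units at 2 µM and 7.21 and 9.35 at 0.5 µM. One array at 2 µM lay just under the detection level, the doses overlapped, the mean change was -2.38 ± 0.63 (SE, limma adjusted p = 0.0244), and of the other Ighm probe sets with a mean above the level 1 changed by -3.07 and 1 by 0.14. Cd72, a co-receptor of B cells, had 6.95 and 8.25 at 2 µM and 8.98 and 9.78 at 0.5 µM, a fall called without either replicate 2 array and not without replicate 1. Of the B cell markers above the level in any of the 4 arrays, Cd79b had 4.46 and 7.69 at 2 µM and 5.72 and 8.43 at 0.5 µM, and Ms4a1 (CD20) had 2.37 and 6.23 at 2 µM and 2.89 and 6.39 at 0.5 µM. The summed level of the 12 B cell markers on the array ran from 31.9 to 40.9 at 2 µM and from 33.4 to 41.6 at 0.5 µM, and none of the 6 tested B cell markers was called by limma, with 0 at an unadjusted p under 0.05. The median change of the tested B cell markers was -0.14. With the actin covariate it was -0.99, and 1 of these markers was called lower. Cd79a, Pax5 and Blk lay under the detection level in all 4 arrays. The part of B cell RNA in the 2 falls was not tested.

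For 69 rises the mean at 0.5 µM lay under the detection level, and for 11 falls the mean at 2 µM did, so their size has only a lower bound, set against that level wherever an array lay under it. Lmna, lamin A of the nuclear envelope, had 6.06 and 5.94 log2 units at 2 µM and 3.39 and 3.22 at 0.5 µM, at least 3.34-fold higher (limma adjusted p = 0.000719). Fnbp1l, an adaptor of actin assembly, had 6.87 and 5.72 at 2 µM and 2.995 and 3.05 at 0.5 µM, at least 4.08-fold higher (limma adjusted p = 0.000333). Both genes were under the level in both arrays at 0.5 µM and above it in both at 2 µM, and so were Abhd3, a phospholipase (at least 6.24-fold), and Fxyd7, a sodium pump regulator of brain (at least 2.81-fold). Of these 4, only Abhd3 lost its call without a replicate 1 array. Gpr183, the oxysterol receptor EBI2 that guides lymphocytes, had 2.54 and 5.28 at 2 µM and 5.24 and 7.62 at 0.5 µM, at least 3.15-fold lower (limma adjusted p = 0.0199). Its doses overlapped through the higher level of replicate number 2. Igfbp2, an IGF-binding protein, was at least 2.75-fold lower, Apold1 at least 3.75-fold and Lair1, an inhibitory collagen receptor, at least 1.75-fold. The fall of Rab26os was at least 1.64-fold. Gpr183 and Igfbp2 were called only in the leave-out of replicate 2 at 2 µM, and Apold1 in none.

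Interferon response genes had the largest share of members called higher among the lists described here. The list holds genes that interferons induce through STAT and IRF factors, among them the guanylate-binding proteins (Gbp) and immunity-related GTPases (Irgm, Igtp, Iigp1) that attack intracellular pathogens. Of its 20 tested members 12 were called higher at 2 µM and none lower, against 7.38% called higher among all tested genes, and its median change was 0.83 (0.91 in replicate number 1 and 0.58 in replicate number 2). Over all 27 members on the array, without the filter on low values, the median was 0.36 and 11 were called higher. With the actin covariate 12 were called. Iigp1 had 12.49 and 11.76 log2 units at 2 µM and 9.59 and 9.85 at 0.5 µM, a 5.29-fold rise (2.40 ± 0.45, SE, limma adjusted p = 0.00614). Gbp2 had 13.13 and 12.84 at 2 µM and 10.71 and 11.31 at 0.5 µM, a 3.93-fold rise (limma adjusted p = 0.00765). Gbp2b, its near copy and outside the list, had 12.89 and 12.07 at 2 µM and 10.16 and 10.24 at 0.5 µM, a 4.87-fold rise, and the probe set read for Gbp2 may hybridise with relatives. In these 3 genes the arrays of the doses stood apart, as in 13.6% of all tested genes in this direction, and picking called genes favours this. Usp18, the protease that takes ISG15 off proteins and dampens interferon receptor signalling, had 6.75 and 6.87 at 2 µM and 4.83 and 5.61 at 0.5 µM, a 3.01-fold rise (limma adjusted p = 0.000384). Of the members Iigp1, Gbp2, Usp18 and Ifit1, Usp18 alone was replicate-robust. The other called members were not followed gene by gene through the leave-outs. Ifit1, an RNA-binding antiviral protein, had 4.08 and 5.36 at 2 µM and 2.29 and 2.86 at 0.5 µM, at least 1.37-fold higher, with 1 array at 2 µM above the detection level. Stat2, which carries the signal of type I interferon, had 6.64 and 4.61 at 2 µM and 4.89 and 4.14 at 0.5 µM, where 1 array lay under the level. The other 7 called members, Irgm2, Gbp6, Igtp, Irgm1, Gbp7, Ifi47 and Ifi27l2a, had mean changes from 0.60 to 1.28. Members not called included the RNA sensors Ifih1 (0.74), Ddx58 (-0.22) and Dhx58 (0.02), and Irf9 (-0.16). Of 13 genes of MHC class I presentation, which interferons also induce, Psmb9 (0.56) and Tap1 (0.44) were called higher and Psmb10 (-1.13) lower, and of 8 MHC class II genes none was called, with 1 at an unadjusted p under 0.05. Without replicate 1 at 2 µM 3 interferon members were called, without replicate 1 at 0.5 µM 4, without replicate 2 at 2 µM 11 and without replicate 2 at 0.5 µM 12, while none was called without the block.

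The sequence GAAA repeated after a gap of 2 bases of any kind, the core of the interferon-stimulated response element, was searched on both strands in the 250 bases before the start of each RefSeq transcript (GRCm38.p6), since these members moved together. It lay in 2.98% of the 32851 promoters of the table, in 7 of the 8 promoters found for the called members and in 2 of the 9 found for members not called. Of the called members, Iigp1, Usp18, Gbp6 and Ifi27l2a had no entry. The 3 promoters below, those of the called members Gbp2, Igtp and Ifit1, are shown in the gene's direction with the matches in capitals. A match describes these letters and is not evidence of binding.
Gbp2, chr3:142620413-142620662, plus strand: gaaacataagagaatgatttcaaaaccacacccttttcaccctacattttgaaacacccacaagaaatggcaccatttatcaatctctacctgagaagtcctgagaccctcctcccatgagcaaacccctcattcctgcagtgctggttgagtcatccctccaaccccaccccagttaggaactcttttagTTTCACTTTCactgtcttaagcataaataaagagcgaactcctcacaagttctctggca
Igtp, chr11:58199306-58199555, plus strand: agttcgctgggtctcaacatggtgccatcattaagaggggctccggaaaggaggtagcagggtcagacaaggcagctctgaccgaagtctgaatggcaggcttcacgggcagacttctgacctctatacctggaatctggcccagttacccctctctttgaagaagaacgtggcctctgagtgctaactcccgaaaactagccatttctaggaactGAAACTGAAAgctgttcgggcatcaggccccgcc
Ifit1, chr19:34640639-34640888, plus strand: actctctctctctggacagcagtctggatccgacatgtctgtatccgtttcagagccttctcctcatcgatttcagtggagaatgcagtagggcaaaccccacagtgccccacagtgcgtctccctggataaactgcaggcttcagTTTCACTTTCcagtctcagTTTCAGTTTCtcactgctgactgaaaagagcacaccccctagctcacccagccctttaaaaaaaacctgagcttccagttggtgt
The match begins 59 bases before the start in Gbp2 and 34 in Igtp, and Ifit1 holds 2, beginning 104 and 85 bases before it. Among these 3 genes, Igtp had 13.30 and 12.89 log2 units at 2 µM and 11.88 and 12.02 at 0.5 µM, a mean change of 1.14 ± 0.15 (SE, limma adjusted p = 0.000905).

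Among T cell transcription factors 6 of 27 tested were called higher (22.2%, against 7.38% of all tested genes) and none lower. The list's median change was -0.10. Irf4, which scales effector programmes with receptor signal, had 12.23 and 11.95 log2 units at 2 µM and 10.84 and 10.81 at 0.5 µM. The arrays of each dose lay close together, and the 2.4-fold rise (limma adjusted p = 0.00084) was replicate-robust and was also called without the block. Tbx21, encoding T-bet of effector CD8 T cells, had 11.53 and 10.93 at 2 µM and 10.39 and 9.71 at 0.5 µM, a 2.27-fold rise (limma adjusted p = 0.0108). Prdm1, encoding Blimp-1 of terminal effector and exhausted cells, had 6.53 and 5.96 at 2 µM and 3.77 and 3.90 at 0.5 µM, at least 3.95-fold higher. Maf, another factor known from exhausted cells, was at least 2.33-fold higher on its brightest probe set, at 5.58 and 5.39 at 2 µM and 2.76 and 3.36 at 0.5 µM, but its other 3 probe sets changed by -0.13 to 0.19. Irf8 (0.84) and Foxo1 (0.60) were the remaining 2. Tbx21 and Foxo1 were called without replicate 2 at 2 µM and in no other leave-out, and only Irf4 was called without a replicate 1 array.

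The effector and signalling lists held at most 4 calls each, to be read against 7.38% called higher and 5.13% lower among all tested genes. Of 24 tested cytokines and chemokines 2 were called higher (8.33%), Ccl5 and Tnf. Tnf, the inflammatory cytokine, had 10.12 and 9.63 log2 units at 2 µM and 8.37 and 7.85 at 0.5 µM, a 3.4-fold rise (limma adjusted p = 0.0157) with no overlap that was called in none of the 4 leave-outs. Of 18 costimulatory and inhibitory receptors Cd160 fell and Cd274, the PD-1 ligand PD-L1, rose, with 9.48 and 9.26 at 2 µM and 8.44 and 7.86 at 0.5 µM (limma adjusted p = 0.015; called in no leave-out). Of 17 cytotoxic granule genes 1 was called, Unc13d, the Munc13-4 protein that primes granules for release, with 6.24 and 6.84 at 2 µM and 7.19 and 7.95 at 0.5 µM, a 2.04-fold fall that was called in no leave-out but that of replicate 2 at 2 µM. In the T cell receptor list 2 of 25 rose and 2 fell (8% each). Fyn, a Src-family kinase, changed by 0.62 and Dok1, an adaptor that restrains receptor signals, by 0.68. Dok2, the relative of Dok1, changed by -1.18 and Prkcq, the protein kinase C of the T cell synapse, by -0.75. Of 31 cytokine receptor and JAK-STAT genes 4 were called higher (12.9%), led by Il12rb1, a chain of the IL-12 and IL-23 receptors, with 9.16 and 8.87 at 2 µM and 7.57 and 7.22 at 0.5 µM. The kinases Jak2 (0.79), Tyk2 (0.41) and Pim2 (0.37) were the others. Among 21 AP-1, NFAT and NF-kappaB genes 4 were called higher (19%), namely Fos (1.23), Egr2 (0.89), Nfatc2 (0.74) and Jun (0.53). None of the 19 chemokine receptor and adhesion genes was called by limma, with 4 at an unadjusted p under 0.05, and no named gene of these lists was called without a replicate 1 array.

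Genes of cell division were among those lower at 2 µM. Of 27 mitosis genes 10 were called lower and none higher, against 5.13% of all tested genes, and 25 of the 27 changes were negative, with a median of -0.53 (-0.77 in replicate number 1 and -0.35 in replicate number 2). Ccnb2, cyclin B2, had 8.26 and 9.99 log2 units at 2 µM and 9.36 and 10.54 at 0.5 µM. The doses overlapped because replicate number 2 was higher at both, and the mean change was -0.83 ± 0.19 (SE, limma adjusted p = 0.015). Cdc20, an activator of the anaphase-promoting complex, had 10.65 and 11.36 at 2 µM and 11.62 and 11.87 at 0.5 µM, without overlap (limma adjusted p = 0.0107). Cenpa, the centromeric histone, changed by -0.90, and the mitotic kinesin Kif20a by -0.83. Ube2c, the ubiquitin-conjugating enzyme of the same complex, changed by -0.72, and Ccna2, cyclin A2, by -0.71. Cenpf, Kif11, Cenpe and Kif2c were the other called members. DNA replication genes had 3 of 27 called lower (11.1%), Rfc5 (-0.58), Pola1 (-0.55) and Cdc6 (-0.48), with a list median of -0.38. Of 22 cell cycle regulators 1 was called lower and 1 higher (4.55% each, against 5.13% and 7.38% of all tested genes). E2f8, a repressor of the E2F family, changed by -0.96 and Rb1, the retinoblastoma protein, by 0.63. The count of mitosis genes called was 0 without replicate 1 at either dose, 10 without replicate 2 at 2 µM and 7 without replicate 2 at 0.5 µM; for DNA replication it was 0, 2 and 1. With the actin covariate 9 mitosis genes were called lower.

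CCAAT boxes, which the factor NF-Y binds in many mitotic promoters, were searched in the same way on both strands. They lay in 33.8% of all promoters, in 7 of the 8 promoters found for called mitosis genes and in 12 of the 16 found for those not called, so called and uncalled members alike carried them. The promoters of Ube2c and Ccnb2 are shown because both genes were called and hold several boxes, given in capitals.
Ube2c, chr2:164769679-164769928, plus strand: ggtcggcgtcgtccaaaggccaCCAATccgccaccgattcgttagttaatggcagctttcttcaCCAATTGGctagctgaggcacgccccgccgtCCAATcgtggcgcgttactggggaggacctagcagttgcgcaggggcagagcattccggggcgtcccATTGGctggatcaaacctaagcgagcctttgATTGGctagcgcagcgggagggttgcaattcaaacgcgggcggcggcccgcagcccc
Ccnb2, chr9:70421555-70421804, minus strand: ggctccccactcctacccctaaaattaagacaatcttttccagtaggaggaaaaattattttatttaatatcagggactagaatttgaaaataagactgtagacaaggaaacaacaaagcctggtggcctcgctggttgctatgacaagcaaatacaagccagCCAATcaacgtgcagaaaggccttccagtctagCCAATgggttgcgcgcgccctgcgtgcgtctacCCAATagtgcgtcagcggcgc
Ube2c holds 6 matches, one pair of which overlaps in CCAATTGG, and Ccnb2 holds 3, beginning 87, 54 and 21 bases before the start.

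Ribosome building and MYC-related genes were also among the falls. Of 29 tested, 12 were called lower (41.4%) and 1 higher (3.45%), against 5.13% and 7.38% of all tested genes. The list median was -0.49 (-0.53 and -0.35 in replicate numbers 1 and 2). Nop56, a core protein of box C/D small nucleolar particles, had 10.46 and 11.18 log2 units at 2 µM and 12.12 and 11.99 at 0.5 µM, a 2.35-fold fall (limma adjusted p = 0.00765). Gnl3, nucleostemin, had 9.87 and 10.34 at 2 µM and 11.15 and 10.99 at 0.5 µM, a 1.95-fold fall (limma adjusted p = 0.00826). Utp20, of the small subunit processome, changed by -0.98 (limma adjusted p = 0.00178), and the nucleolar proteins Nolc1, Dkc1 and Ppan by -0.92, -0.90 and -0.88. In Nop56, Gnl3 and Utp20 both arrays at 2 µM lay under both at 0.5 µM, as in 8.89% of all tested genes, and picking called genes favours this. The one rise was that of Mxd1, which competes with MYC for its partner MAX, with 7.999 and 8.01 at 2 µM and 6.29 and 6.96 at 0.5 µM (limma adjusted p = 0.0025). The E-box CACGTG that MYC and MAX bind lay in 6.02% of all promoters searched and in none of the 8 found for the called falls, which says only that these letters are not in those windows. Without replicate 1 at 2 µM none of the falls was called, without replicate 1 at 0.5 µM 1 was, without replicate 2 at 2 µM 11 and without replicate 2 at 0.5 µM 9.

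Some enzymes of serine, amino acid and lipid synthesis were called lower as well. The ATF4 stress response supplies serine, one-carbon units and amino acids. Of its 20 tested genes 7 were called lower (35%, against 5.13% of all tested genes), none higher and 13 neither way. The list median was -0.55, and 4 members were called lower with the actin covariate. Shmt2, the mitochondrial serine hydroxymethyltransferase, had 8.80 and 9.90 log2 units at 2 µM and 10.37 and 10.49 at 0.5 µM, a 2.12-fold fall (limma adjusted p = 0.0107). Phgdh, the first enzyme of serine synthesis, changed by -0.83 and Psph, the last one, by -0.75. Asns, asparagine synthetase, changed by -0.95. In all 4 enzymes the doses did not overlap, as in 8.89% of all tested genes in this direction, and picking called genes favours this. Of 22 cholesterol and fatty acid genes 6 were called lower (27.3%), none higher and 16 neither way. Among the 6 were Fasn, Elovl6, a fatty acid elongase (-1.14), Insig1, the sterol sensor partner (-0.88), and Cyp51, the lanosterol demethylase (-0.59). Idi1 and Lss, both of sterol synthesis, were the other 2. Of 21 glycolysis genes 3 were called lower (14.3%) and 2 higher (9.52%, against 7.38% of all tested genes). Pfkl, the liver-type phosphofructokinase, changed by -1.34 (-0.56 on another probe set) and Pfkm, the muscle type, by 0.62. Tpi1, triose phosphate isomerase, changed by -0.74 and Eno2, the enolase known from neurons, by 1.07. Without either replicate 1 array no member of the ATF4 or the lipid list was called. Without replicate 2 the ATF4 count was 7 when the 2 µM array was left out and 4 when the 0.5 µM array was, and the lipid count was 4 in both.

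Metallothioneins and 3 inducible heat shock proteins rose. Of 14 tested heat shock and metallothionein genes, 5 were called higher (35.7%) and 2 lower (14.3%), against 7.38% and 5.13% of all tested genes. Mt1 had 11.21 and 10.65 log2 units at 2 µM and 9.29 and 9.19 at 0.5 µM, a 3.23-fold rise (limma adjusted p = 0.00213), and Mt2 11.003 and 10.55 at 2 µM and 9.05 and 9.02 at 0.5 µM, a 3.34-fold rise (limma adjusted p = 0.00765). Both encode small metal-binding proteins, both rose in each replicate number without overlap, and the Mt1 probe set may hybridise with relatives. Hspb1, the small chaperone HSP27, had 5.35 and 5.64 at 2 µM and 3.08 and 3.03 at 0.5 µM, at least 2.35-fold higher and replicate-robust (limma adjusted p = 6.27e-05). Of the near-identical inducible HSP70 genes, Hspa1a had 6.55 and 4.32 at 2 µM and 4.17 and 2.78 at 0.5 µM, both of the last under the level, and was higher by at least 1.17 on the log2 scale, and Hspa1b changed by 1.65. Hsph1 (-0.38) and Hsp90aa1 (-0.33) were called lower. Mt1, Mt2 and Hspa1a were not called without the replicate 1 array of either dose.

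The metal response element was searched as TGCACNC or TGCGCNC on both strands. Matches lay in 21.4% of all promoters, and 3 or more in 1.26%. Within the 250 bases before the annotated start Mt1 holds 1 and Mt2 holds 3, given in capitals. Elements outside these windows were not searched, so the counts are not those of the whole promoters. The 2 promoters are shown because the neighbouring genes rose by like amounts.
Mt1, chr8:94178839-94179088, plus strand: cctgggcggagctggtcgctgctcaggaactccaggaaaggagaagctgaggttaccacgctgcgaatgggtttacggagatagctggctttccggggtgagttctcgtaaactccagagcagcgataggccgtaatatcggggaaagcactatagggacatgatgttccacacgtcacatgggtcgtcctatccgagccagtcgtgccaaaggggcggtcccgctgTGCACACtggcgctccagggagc
Mt2, chr8:94172368-94172617, plus strand: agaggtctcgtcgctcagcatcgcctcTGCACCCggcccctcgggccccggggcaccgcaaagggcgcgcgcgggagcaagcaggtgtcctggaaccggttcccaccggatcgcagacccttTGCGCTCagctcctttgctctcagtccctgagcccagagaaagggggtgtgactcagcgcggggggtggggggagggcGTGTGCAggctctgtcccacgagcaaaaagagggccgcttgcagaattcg
The change of Mt1 was 1.92 and 1.46 and that of Mt2 1.96 and 1.52 in replicate numbers 1 and 2.

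Redox, lysosomal and death genes gave smaller sets of calls, to be read against 7.38% called higher and 5.13% lower among all tested genes. Of 20 glutathione and redox genes the microsomal transferase Mgst3 was 2.57-fold higher and Gstm1 1.93-fold. Gsta4, with 1 array at 0.5 µM under the level, was at least 1.82-fold higher, while Gpx1, a glutathione peroxidase, changed by -0.40. Lysosome and autophagy genes had 8 of 25 called higher and none lower, with a median of 0.28. Among them Wipi1, of early autophagosomes, changed by 1.20, Ctsl, cathepsin L, by 0.74, Npc2, the lysosomal cholesterol carrier, by 0.71 and Lamp2 by 0.69. Other Wipi1 probe sets, with means under the detection level at both doses, changed by 0.17 to 0.32. Of 16 pro-apoptotic genes 4 were called higher and 2 lower. Bmf, a BH3-only protein, had 7.43 and 7.58 log2 units at 2 µM and 6.18 and 6.58 at 0.5 µM (limma adjusted p = 0.0293), and Bcl2l11, encoding BIM, changed by 0.78. Casp6 changed by 0.85 and the death receptor Fas by 0.76, whereas Bak1 (-0.75) and Bid (-0.37) were lower. The lysosome count was 0 without replicate 1 at either dose, 3 without replicate 2 at 2 µM and 7 without replicate 2 at 0.5 µM. Bmf and Fas were called in none of the 4 leave-outs.

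Several genes of neurons and of the cytoskeleton rose. HDAC inhibitors are known to raise neuronal genes that the REST repressor holds down in other cells. Of 37 neuronal genes on the array, 20 passed the filter on low values. Of these 20, 9 were called higher (45%, against 7.38% of all tested genes) and none lower. The filter favours genes high at some dose, which raises this share. Over all 37, without the filter, 5 were called higher and none lower, against 467 called higher among all 18194 genes. Wasf1, the neuronal WAVE1 protein of actin branching, had 6.29 and 5.61 log2 units at 2 µM and 3.55 and 2.98 at 0.5 µM, at least 3.23-fold higher (limma adjusted p = 4.49e-05), and was called without the block as well. Bex2 was at least 3.24-fold higher, and Aplp1, a relative of the amyloid precursor protein, 2.52-fold. The other called members were Stx3 (at least 2.72-fold, with 1 array at 0.5 µM under the level), and, with their log2 changes, Kif5c (1.19), Syt11 (1.17), Uchl1 (1.12), Eno2 and Prnp (0.81). Of 24 tubulin and actin genes 6 were called higher (25%) and 1 lower (4.17%, against 5.13% of all tested genes). Fscn1, which bundles actin in dendritic and activated cells, had 12.12 and 10.35 at 2 µM and 10.18 and 8.75 at 0.5 µM, a 3.41-fold rise (limma adjusted p = 0.00178), while its other probe set, at means of 6.20 at 2 µM and 6.05 at 0.5 µM, changed by 0.15 ± 0.18 (SE). Gsn, gelsolin, was 2.54-fold higher and Tpm2, a tropomyosin, at least 2.43-fold, while the tubulin Tubb4b changed by -0.64. The neuronal count was 4, 4, 4 and 5 in the 4 leave-outs and 1 without the block. The cytoskeletal rises numbered 1 and 2 without replicate 1 at 2 µM and at 0.5 µM, and 5 and 4 without replicate 2.

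Of 15 histone deacetylases 2 were called, both higher (13.3%, against 7.38% called higher among all tested genes). Hdac1 had 11.77 and 11.44 log2 units at 2 µM and 11.09 and 11.14 at 0.5 µM, a 1.4-fold rise (limma adjusted p = 0.0135), and Sirt2, an NAD-dependent deacetylase that vorinostat does not target, changed by 0.75. None of 23 subunits of HDAC complexes was called by limma, with 2 at an unadjusted p under 0.05. Of 16 acetyltransferases and BET readers 1 was called lower (6.25%, against 5.13% of all tested genes), Crebbp, encoding CBP, with a change of -0.45. Of 19 Polycomb and DNA methylation genes 2 were called higher (10.5%), Cbx7 (0.50) and Jarid2 (0.45). The replacement histone gene H3f3b changed by 0.78. Crebbp was called in none of the 4 leave-outs, and none of these genes was called without a replicate 1 array.

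**Figure D3:**
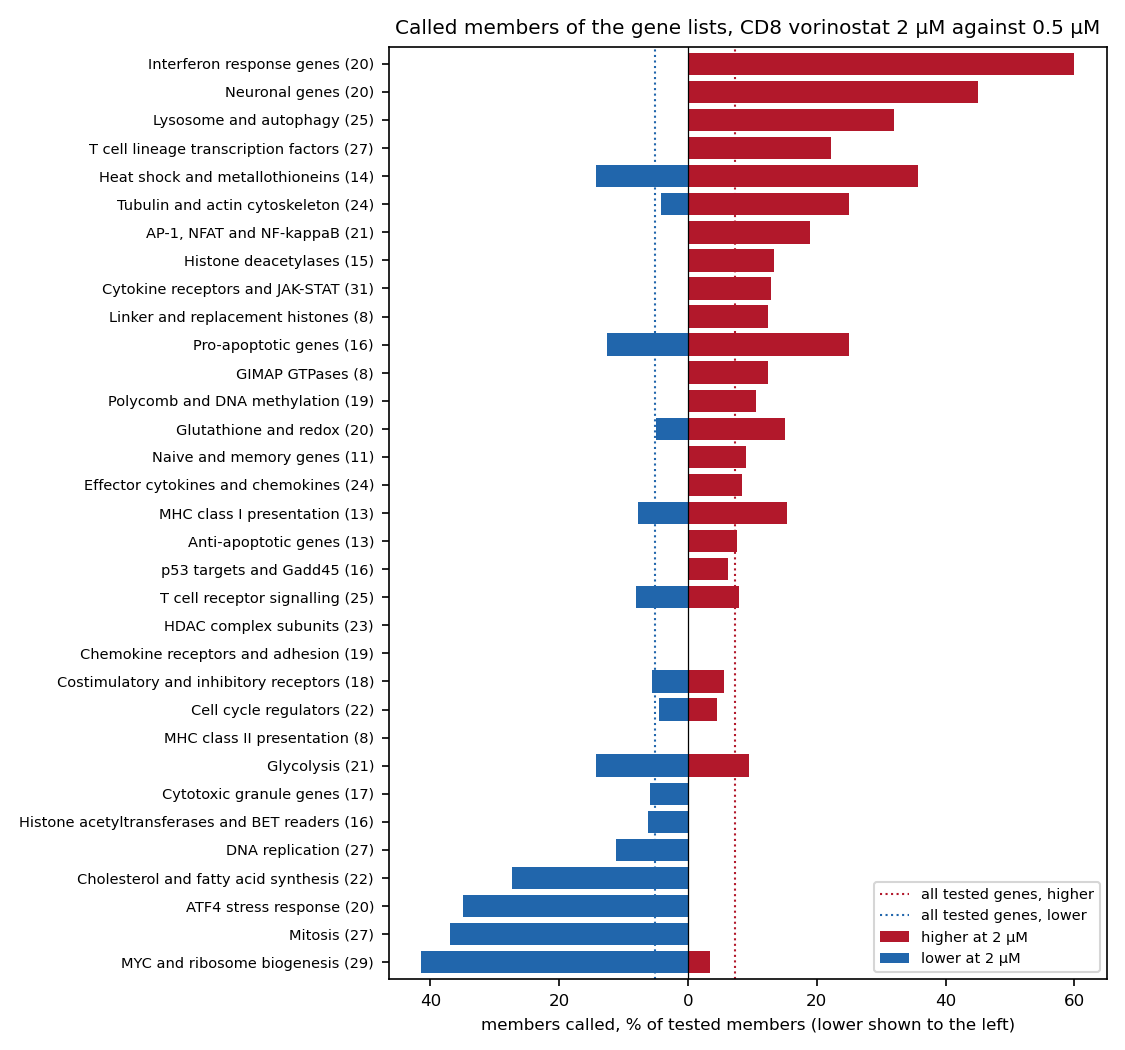
Percentage of tested members called higher (red, to the right) or lower (blue, to the left) at vorinostat 2 µM than at 0.5 µM in CD8 cells. Each pathway list has its number of tested members in parentheses. Tested members are those that passed the filter on low values, and without it 5 of 37 neuronal genes were called higher. Dotted lines mark the percentages over all tested genes (7.38 higher, 5.13 lower); the interferon (60%), neuronal (45%), heat shock and metallothionein (35.7%) and lysosomal (32%) lists reach farthest to the right, and the ribosome (41.4%), mitosis (37%), ATF4 (35%) and lipid (27.3%) lists farthest to the left.

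Beside the other vorinostat doses, the step from 0.5 to 2 µM lay between a small and a large response. Against the control, 112 genes (1.13%) were called at 0.5 µM, 3637 (36.8%) at 2 µM and 6321 (64.0%) at 10 µM, and 4086 (41.4%) differed between 10 and 2 µM. These comparisons share arrays with the step and are given side by side only. The median of the interferon list against the control was 0.14 at 0.5 µM, 1.10 at 2 µM and 1.33 at 10 µM. Neuronal genes had 0.69, 1.54 and 2.41 at the same doses, and mitosis genes -0.29, -0.93 and -1.36. Prss16 had 2.92 and 2.66 log2 units in the controls and 8.003 and 8.94 at 10 µM, where its change from 2 µM was 0.70 ± 0.28 (SE, limma adjusted p = 0.0543). Mt1 had 8.22 and 8.70 in the controls and 13.31 and 12.86 at 10 µM, above its level at 2 µM by 2.15 ± 0.26 (SE, limma adjusted p = 5.72e-05). Tbx21 turned down: it had 9.12 and 8.87 in the controls and 9.82 and 10.19 at 10 µM, a change of -1.22 ± 0.25 between 10 and 2 µM (limma adjusted p = 0.00175). T cell receptor genes, whose list median was -0.18 at 0.5 µM and -0.38 at 2 µM, reached -1.98 at 10 µM.

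**Figure D4:**
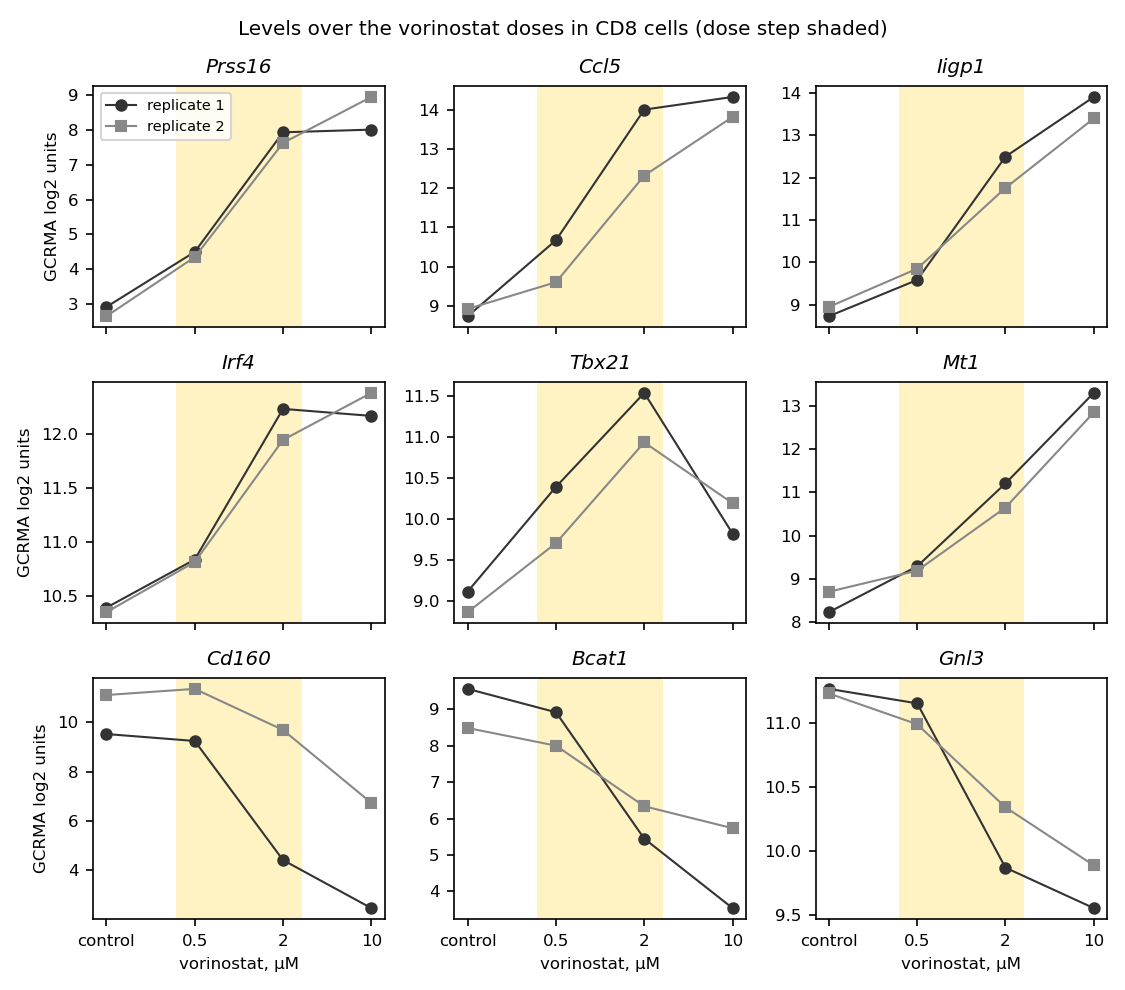
Expression in GCRMA log2 units (vertical axes, scaled per gene) of 9 named genes in CD8 cells without drug and at 0.5, 2 and 10 µM vorinostat, one line per replicate number, with the step from 0.5 to 2 µM shaded. Tbx21 peaks at 2 µM, and Prss16 and Irf4 in replicate number 1 change little from 2 to 10 µM.

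The same step in CD4 cells, measured on 4 other arrays, gave 518 calls (5.25%), 279 higher (2.83%) and 239 lower (2.42%) at 2 µM. Genes called higher in both cell types numbered 143, which is 19.6% of the CD8 rises and 51.3% of the CD4 rises, and genes called lower in both numbered 79, or 15.6% and 33.1%; 2 were called in opposite directions. Only 15 genes (0.152%) had a step that differed between the cell types by a test of the difference, 14 of them (0.142%) with the higher change in CD8 cells and 1 (0.0101%) with the lower, while 831 had an unadjusted p under 0.05. Over all 18194 genes, without the filter on low values, 16 were called, 8 each way, and 7 of these were among the 15. Epas1, encoding the hypoxia factor HIF-2 alpha, changed by 1.33 and 1.41 in CD8 cells and by -0.55 and -0.84 in CD4 cells in replicate numbers 1 and 2. Usp18 changed by 1.92 and 1.26 in CD8 cells and by -0.12 and -0.34 in CD4 cells. Nfil3, a bZIP repressor that acts in several lymphocyte lineages, changed by 1.79 and 1.16 in CD8 cells and by -0.24 and -0.20 in CD4 cells. In each the CD8 arrays rose and the CD4 arrays did not, and the differences were 2.07 ± 0.30, 1.82 ± 0.26 and 1.70 ± 0.28 (SE, limma adjusted p = 0.0164, 0.0164 and 0.032). Nfil3 was higher in CD4 cells at both doses, with 11.50 and 11.96 at 2 µM and 11.74 and 12.16 at 0.5 µM in CD4 cells, against 8.78 and 8.56 and 6.98 and 7.40 in CD8 cells. Palld, palladin of actin bundles, differed by 1.81 ± 0.22 and Dixdc1, a Wnt pathway regulator, by 1.51 ± 0.23. In CD4 cells Palld had means of 3.95 at 2 µM and 4.36 at 0.5 µM, beside a detection level of 4.26. For Palld and for Epas1, 1 CD8 array at 0.5 µM lay under that level. Interferon genes had 7 of 20 called higher in CD4 cells with a median of 0.53, mitosis genes 5 of 27 lower, ATF4 genes 6 of 20 lower, and MYC and ribosome genes none. Whether the lists' steps differ between the cell types was not tested. The count of 15 was 1 without the CD8 replicate 1 array at 2 µM, 0 without that at 0.5 µM, and 0 without the block (109 at an unadjusted p under 0.05 in limma).

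**Figure D5:**
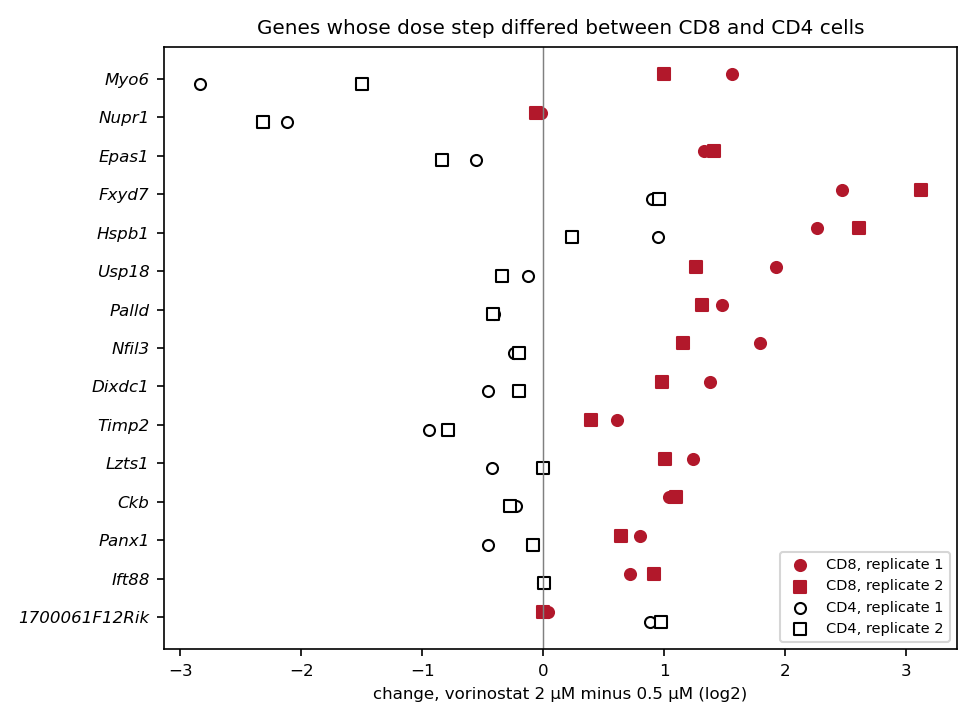
Change from 0.5 to 2 µM vorinostat in log2 units (horizontal axis) in CD8 cells (filled red) and CD4 cells (open), for the 15 genes whose change differed between the cell types, circles for replicate number 1 and squares for replicate number 2. In Myo6, Nupr1 and Timp2 the difference comes with a fall in CD4 cells, and in Fxyd7 and Hspb1 both cell types have positive changes, with all 4 CD4 arrays and both CD8 arrays at 0.5 µM under the detection level.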

How the data were processed

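Whole-transcriptome Affymetrix mouse arrays of 45101 probe sets were measured on 28 samples in 14 groups of 2. The authors deposited 1 table of normalized values; per the submitters' processing notes it was made with GCRMA. The deposited values run from 2.25 to 16.7 and were read as log2, the scale on which GCRMA reports, although no header states the base. The lowest value was 2.268 in replicate number 1 and 2.255 in replicate number 2. Whether the 2 replicate numbers were normalized separately is not stated. Arrays have no sequencing depth, so their number limits the precision: a typical 95% interval of the step was ± 0.35 log2 units with the block and ± 0.97 without.

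Probe sets were named from the platform annotation (34958 name 1 gene, 932 several and 9211 none) and each of 18194 genes was read on its brightest probe set. A gene was taken as detected 2 log2 units or more above the most common value, and 9875 genes detected on at least 2 arrays were tested. limma 3.58.1 in R 4.3.3 was fitted to all 28 arrays with a mean per group and a block for each replicate number of a cell type, leaving 12 residual degrees of freedom, two-sided, with Benjamini-Hochberg adjustment over all 9875 genes and a threshold of 0.05. The procedure was also run on data simulated from the fit with the block, which cannot test whether the block is right. The pairing rests on the shared numbers in the labels and on the data: deviations of same-numbered arrays from their group means correlated at 0.91 between 2 µM and 0.5 µM and at 0.77 to 0.96 over the 21 pairs of CD8 groups, and the sex-linked genes separated the numbers.

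Genes were named by a rule: among called genes, the 12 with the largest change in each direction whose 2 means both passed the detection level, up to 5 each way given as bounds, up to 4 called members of each list, and the 5 largest differences each way between cell types among genes with both CD8 means over the detection level; other list members given with values were chosen after their values were seen, as were the promoters and motifs. Members and lists were chosen with earlier results of these data known. Alternatives covered the block, 2 scalings, 2 filters, probe set averaging, the variance trend, an actin 3′ to 5′ covariate, subsets of arrays and each array left out. Promoters came from RefSeq (GRCm38.p6). Romidepsin arrays entered the fit only.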

Additional observations from a re-analysis of the deposited data

Results flagged for a closer look

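The dose step differed between CD8 and CD4 cells for 15 genes by a test of the difference in the fit with the replicate block. The 10 of them named in the text or its captions had these differences, CD8 change minus CD4 change. Myo6 differed by 3.44 ± 0.56 (SE, limma adjusted p = 0.0304), with its CD8 mean at 0.5 µM under the detection level, and Nupr1 by 2.18 ± 0.38 (adjusted p = 0.0401), with both CD8 means under it. Timp2 differed by 1.37 ± 0.25 (adjusted p = 0.0457). For Epas1 it was 2.07 ± 0.30 (SE, limma adjusted p = 0.0164), with 1 CD8 array at 0.5 µM under the detection level. Fxyd7 differed by 1.87 ± 0.34 (adjusted p = 0.0457) and Hspb1 by 1.84 ± 0.33 (adjusted p = 0.0457); in both genes all 4 CD4 arrays and both CD8 arrays at 0.5 µM lay under the detection level, so the size of these differences is not measured above background. Usp18 differed by 1.82 ± 0.26 (limma adjusted p = 0.0164) and Palld by 1.81 ± 0.22 (limma adjusted p = 0.00648). The Palld means in CD4 cells, 3.95 at 2 µM and 4.36 at 0.5 µM, lay near the detection level of 4.26. Its CD4 change is thus not measured clearly above background, and 1 CD8 array at 0.5 µM lay under the level. Nfil3 differed by 1.70 ± 0.28 (limma adjusted p = 0.032) and Dixdc1 by 1.51 ± 0.23 (limma adjusted p = 0.0269). In each of the 10 the CD8 change was above the CD4 change in both replicate numbers, which picking them by this difference favours.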

How the results depend on the processing

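The step of 1236 genes fell to 16 without the replicate block, 755 without the filter on low values and 668 with CD8 arrays only, and ran from 38 to 851 when 1 of its 4 arrays was left out; the counts without the filter and with CD8 arrays only come with more genes tested or fewer arrays, and the cause of the others was not tested. Quantile scaling, equal medians, the stricter filter, probe set means, the variance trend, the actin covariate and the fit without top doses gave 1228 to 1589. The 15 genes that differed between cell types became 0 without the replicate block (109 at an unadjusted p under 0.05 in limma), 8 with quantile scaling, 5 with probe set means, 7 with the variance trend, 32 with the actin covariate, 9 without top doses, and 0 to 20 when 1 array was left out; without the filter they were 16, 8 each way, in place of 14 and 1. The 518 calls in CD4 cells became 1 without the block, 221 without the filter and 3 to 330 when 1 array was left out. No named gene changed direction in any alternative that tested it. Of 117 named genes, 106 lost their call without the block, 45 without the filter, 44 with CD8 arrays only, 15 with the actin covariate, 5 without top doses, 3 with equal medians, and 0 with quantile scaling or the trend; of 113 tested with probe set means 10 did, and of 114 under the stricter filter 0. Leaving out replicate 1 at either dose cost 100 calls each, and leaving out replicate 2 cost 32 at 2 µM and 45 at 0.5 µM. Without the filter the neuronal median was 0.16 and the interferon median 0.36. The medians of the interferon, neuronal, lysosome, mitosis, replication, ribosome, ATF4 and lipid lists kept their sign in all 14 alternatives. Genes under the detection level have only bounds.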
